A study of Mus musculus with 16 samples.

Results

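The interferon regulatory factor (IRF) family was followed here in splenic B cells of mice with and without a conditional deletion of Gtf2i. This gene encodes the transcription factor TFII-I. The 8 members, Irf1, Irf2, Irf3, Irf4, Irf5, Irf7, Irf8 and Irf9, were chosen by their listed symbols out of 27928 genes in the expression table. All 8 passed the filter on low values, a mean of 10 normalized counts, which 14761 genes passed. RNA was sequenced from B cells of the follicle (FO) and of the marginal zone (MZ), sorted from the spleen of mice 8 to 12 weeks of age as CD21lo CD23hi and CD21hi CD23lo cells. Each of the 4 groups had 2 libraries. The conditional knockout (cKO) mice carried Gtf2i fl/fl and a Cre recombinase that is active in B-lineage cells. The WT mice were C57BL/6, as were the cKO mice, and carried no Cre, so that an effect of Cre and an effect of the deletion cannot be told apart. The labels do not say whether the 2 libraries of a group came from separate mice. The p-values therefore measure the spread between these libraries, which may be technical. The 2 cKO FO libraries differed in the sex-linked transcript Xist (14748 and 67.4), so that their spread was not technical alone.

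IRF proteins share a DNA binding domain that recognizes repeats of GAAA, the core of the interferon-stimulated response element (ISRE). IRF1 is an activator and IRF2 binds the same sites, often as its antagonist. IRF3, IRF5 and IRF7 are held in the cytoplasm until kinases downstream of nucleic acid sensors and Toll-like receptors phosphorylate them, and IRF9 forms ISGF3 with STAT proteins after type I interferon. IRF4 and IRF8 are the lymphoid and myeloid members, which bind composite ETS-IRF elements (EICE) with PU.1 or Spi-B. In B cells, IRF4 is induced by antigen receptor signalling and is needed for plasma cell formation, while IRF8 acts in germinal centre and follicular cells.

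The labels were checked first. Cr2, which encodes CD21, lay between 22942 and 26803 normalized counts in the 4 FO libraries and between 86953 and 97087 in the 4 MZ libraries, and Fcer2a, which encodes CD23, lay between 24802 and 41973 in FO and between 3069 and 6708 in MZ. Gtf2i ranged from 1992 to 2864 in WT and from 1523 to 1889 in cKO, with no overlap. Much of its signal was thus still counted in every cKO library. The genotypes also differed in Xist, a transcript of female cells, and in Ddx3y, a gene of the Y chromosome. Xist was at 25929.5 to 47002 in WT. In cKO it was at 14748 and 67.4 in FO and at 89.7 and 21.7 in MZ, replicate 1 before replicate 2. Ddx3y was at 0.998 to 6.34 in WT and 2682 to 5514 in cKO. The library cKO FO replicate 1 held both transcripts, with Ddx3y at 2682. Sex, as read from these transcripts, and genotype cannot be told apart in any cKO against WT value. Through cKO FO replicate 1, FO against MZ values that include cKO, and the interaction, also compare libraries unlike in Xist. Reads on genes numbered 21546552 to 25083552 per library. Transcripts of 8 granulocyte genes summed to 1849 in the library labelled cKO MZ replicate 1 and to 103 or less in every other library. In bulk samples, fewer cells that express a gene and less RNA per cell cannot be told apart.

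The 250 bases before each annotated start (RefSeq, GRCm38.p6) were read for all 8 members, which had 11 starts together. They were searched on both strands for the ISRE core GAAANNGAA, the STAT element (GAS) TTCNNNGAA, the NF-kB site GGGNNTTTC and the composite element GGAANNGAA, where N is any base. Of 32851 mouse starts, 7.13% held the ISRE core, 7.02% the GAS, 3.72% the NF-kB letters and 6.99% the composite element. Among the members, the GAS letters were found at Irf1, Irf2 and Irf8, and the ISRE core, the composite element and the NF-kB letters at Irf2. The matches at the 3 members are shown because Irf1 and Irf2 carry the FO against MZ differences described here and Irf8 is the lymphoid member with a GAS match. Each stretch runs 5′ to 3′ along the gene and the capitals mark the match.
Irf2, chr8:46739495-46739562, + strand, ISRE core beginning 241 bases before the start: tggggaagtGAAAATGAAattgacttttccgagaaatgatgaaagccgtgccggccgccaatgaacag
Irf1, chr11:53769874-53769982, + strand, GAS beginning 90 bases before the start: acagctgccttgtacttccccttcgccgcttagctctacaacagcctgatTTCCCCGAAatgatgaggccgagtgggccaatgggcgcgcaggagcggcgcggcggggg
Irf8, chr8:120736137-120736245, + strand, GAS beginning 171 bases before the start: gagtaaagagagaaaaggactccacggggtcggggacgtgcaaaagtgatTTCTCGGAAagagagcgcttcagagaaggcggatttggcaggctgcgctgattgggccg
The ISRE match of Irf2 overlapped the composite element match, which began 247 bases before the start, and a GAS match began 224 bases before it in the same stretch. Irf8 held another GAS match that began 153 bases before its start. These are matches of letters and not sites shown to be bound.

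Irf4 had the highest level of the family per unit of length. Levels were compared between genes as normalized counts per kb of merged exons (GENCODE M21). Irf4 was at 5844 and 2225 per kb in WT FO replicates 1 and 2, at 7616 and 2756 in WT MZ, at 5529 and 5151 in cKO FO and at 4540.2 and 6965 in cKO MZ. It ranked first in 7 of 8 libraries and second, behind Irf5, in WT FO replicate 2. Irf5 (1915 to 2579 per kb) and Irf8 (1607 to 2454) followed, with ranges that overlapped each other. Irf3 (1064 to 1327) and Irf1 (883 to 1649) came next and also overlapped, above Irf9 (582 to 967), Irf2 (308 to 702) and Irf7 (183 to 522). Irf7 was the lowest member in 7 of 8 libraries, with Irf2 below it in WT MZ replicate 2. Irf4 alone made up between 20.2% and 50.6% of the summed normalized counts of the 8 members. The sum of the other 7 members lay between 31617 and 44882 in the 8 libraries.

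**Figure D1:**
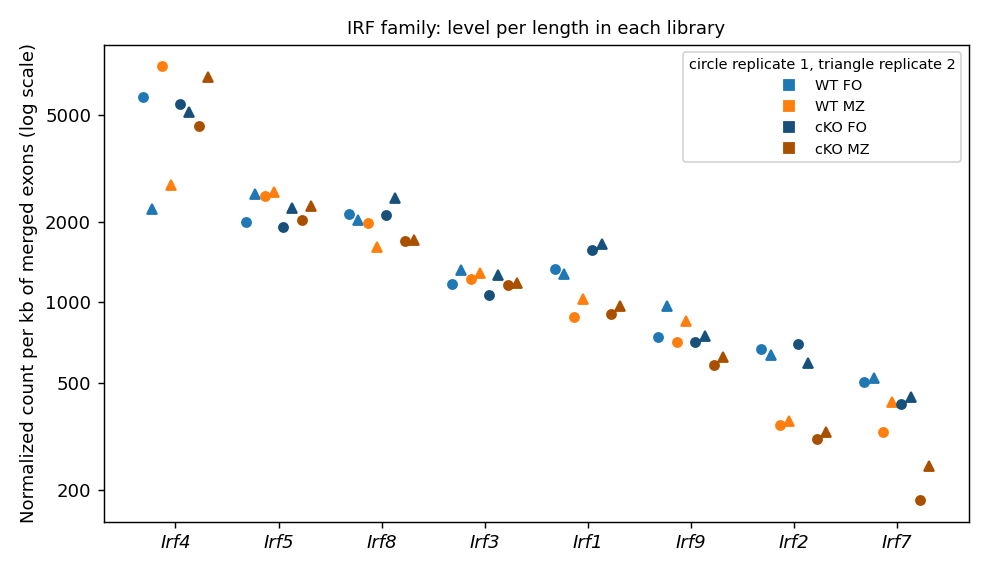
Normalized count per kb of merged exons (log scale) for the 8 IRF genes, ordered by their median, with 1 point per library coloured by group, a circle for replicate 1 and a triangle for replicate 2. Irf4 spanned 2225 to 7616 per kb, its lowest points being WT FO replicate 2 and WT MZ replicate 2, and Irf7 was lowest in cKO MZ, at 183 and 246.

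**Figure D2:**
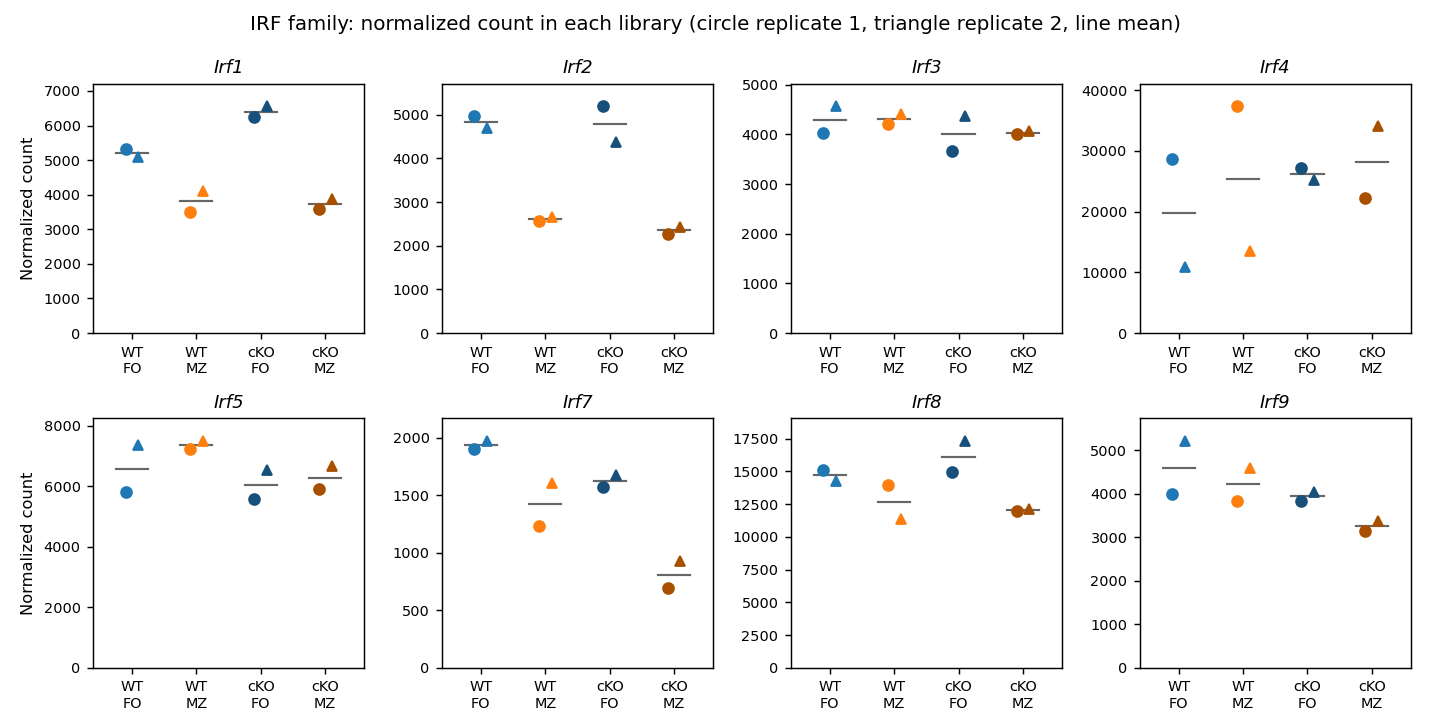
Normalized count (linear axis from 0) of each IRF gene in each library, with a circle for replicate 1, a triangle for replicate 2 and a line at the mean of the group. Irf2 separated FO from MZ in both genotypes, Irf7 was lowest in cKO MZ, and the points of Irf4 lay far apart within WT FO and within WT MZ.

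The first question was which members differ between FO and MZ B cells. Irf2 was about 2-fold higher in FO than in MZ cells of both genotypes, Irf1 and Irf7 were higher in FO by an amount that passed the test in cKO and across both genotypes, and Irf3, Irf5 and Irf4 showed no difference that passed. A gene was called where its adjusted p was at most 0.05 (limma on log2 of the normalized count plus 1, Benjamini-Hochberg over 14761 genes) and its difference was at least 1.5-fold. In WT, 1 of 8 members was called, where 12% of all tested genes were called. In cKO, 3 of 8 were called, against 13.7% of all genes, and across both genotypes 3 of 8, against 18.4%. Every called member was higher in FO. The median absolute log2 difference was 0.284 over the members and 0.278 over all genes in WT, and 0.347 and 0.306 in cKO. Pairs of values per gene are normalized counts, replicate 1 before replicate 2.

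Irf2, the repressor of the pair (chr8:46739732-46847458), was measured at 4959.8 and 4702 normalized counts in FO and 2576 and 2659 in MZ cells of WT mice. In cKO mice it reached 5192 and 4379 in FO and 2274 and 2426 in MZ cells. Each FO library was thus above each MZ library, and the genotypes lay close together. The log2 difference, FO minus MZ, was 0.88 (SE 0.1, 95% CI 0.65 to 1.12, limma adjusted p = 0.00131) in WT and 1.02 (SE 0.1, CI 0.79 to 1.25, limma adjusted p = 0.00062) in cKO, a fold of 1.84 and 2.03.

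Irf1, the activator (chr11:53770014-53778374), had 5325 and 5087 among WT and 6239 and 6555 among cKO libraries of FO cells, against 3512 and 4112 (WT) and 3599 and 3865 (cKO) for MZ cells. All 4 FO libraries were above all 4 MZ libraries. In WT the log2 difference was 0.45 (SE 0.0985, limma adjusted p = 0.0188), a fold of 1.37 that was below the fold required. In cKO it was 0.78 (SE 0.0985, CI 0.55 to 1.01, limma adjusted p = 0.00181), a fold of 1.71. Across both genotypes it was 0.62 (SE 0.0696, limma adjusted p = 0.0005), a fold of 1.53, and it dropped under 1.5-fold, to 0.56, without WT MZ replicate 1. The call in cKO and its lack in WT do not show a difference between genotypes, since the interaction of genotype and subset did not pass. For Irf1 this interaction was 0.32 (SE 0.139, CI 0.00059 to 0.65), with a limma unadjusted p of 0.0497 and adjusted p = 1.

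Irf7, which amplifies the type I interferon response (chr7:141262706-141266481, - strand), had 1902 and 1970.3 in WT FO and 1234 and 1606 in WT MZ. In cKO it had 1569.8 and 1679 in FO and 692 and 928 in MZ, the 2 lowest values of any member. FO lay above MZ within each genotype, but cKO FO replicate 1 lay below WT MZ replicate 2. The log2 difference, FO minus MZ, was 0.46 in WT (SE 0.167, limma adjusted p = 0.107) and 1.02 in cKO (SE 0.167, CI 0.63 to 1.41, limma adjusted p = 0.00541), a fold of 2.02. The difference in WT was 0.27 without WT MZ replicate 1. The interaction for Irf7 was 0.56 (SE 0.237, CI 0.0086 to 1.11), with an unadjusted p of 0.0473 and a limma adjusted p = 1. The library with granulocyte transcripts, cKO MZ replicate 1, was also the lowest for Irf7, and the difference in cKO was 0.81 without it.

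The other sensor-activated members were nearly level. Irf3 (chr7:44997648-45002848) had 4022 and 4567 among WT and 3661 and 4369 among cKO libraries of FO cells, against 4207 and 4422 (WT) and 4014 and 4064 (cKO) for MZ cells, with FO and MZ overlapping. Its log2 difference was -0.0093 in WT (CI -0.26 to 0.24) and -0.014 in cKO (CI -0.27 to 0.24), so that the intervals lay within 1.5-fold on either side. Irf5 (chr6:29526625-29541871) had 5795 and 7356 among WT and 5564 and 6542 among cKO libraries of FO cells, against 7233 and 7492 (WT) and 5905 and 6654 (cKO) for MZ cells. Its log2 difference was -0.17 in WT (CI -0.49 to 0.14) and -0.055 in cKO (CI -0.37 to 0.26). Of the exon bases of Irf5, 14.1% overlap Tnpo3 on the opposite strand, and the counting is not stated to have used strand. Tnpo3 itself lay between 2501 and 2726 in the 8 libraries.

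Irf9 and Irf8 were not called between the subsets, in either genotype or across both. Irf9 (chr14:55603571-55610030) had 3987 and 5209 among WT and 3835 and 4044 among cKO libraries of FO cells, against 3835 and 4595 (WT) and 3135 and 3363 (cKO) for MZ cells. Its log2 difference, FO minus MZ, was 0.12 in WT (CI -0.21 to 0.45) and 0.28 in cKO (CI -0.052 to 0.61). Irf8 (chr8:120736358-120756694) had 15106 and 14282 among WT and 14929.7 and 17313 among cKO libraries of FO cells, against 13966 and 11334 (WT) and 11998 and 12105 (cKO) for MZ cells. All 4 FO libraries exceeded all 4 MZ libraries for Irf8. The log2 difference of Irf8 was 0.22 in WT (SE 0.123, limma adjusted p = 0.269), 0.42 in cKO (SE 0.123, limma adjusted p = 0.0509) and 0.32 across both genotypes (SE 0.0867, limma adjusted p = 0.0249), a fold of 1.25 that was below the fold required. Without WT MZ replicate 2 the difference in WT was 0.0727 and without WT MZ replicate 1 it was 0.37, and the adjusted p across both genotypes reached 0.0821 without cKO FO replicate 2.

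FO and MZ libraries did not overlap for 4 of 8 members in WT and 5 of 8 in cKO. The same held for 55.3% and 65% of all tested genes. Across both genotypes 3 of 8 members (Irf1, Irf2 and Irf8) were apart, against 36.5% of genes.

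**Figure D3:**
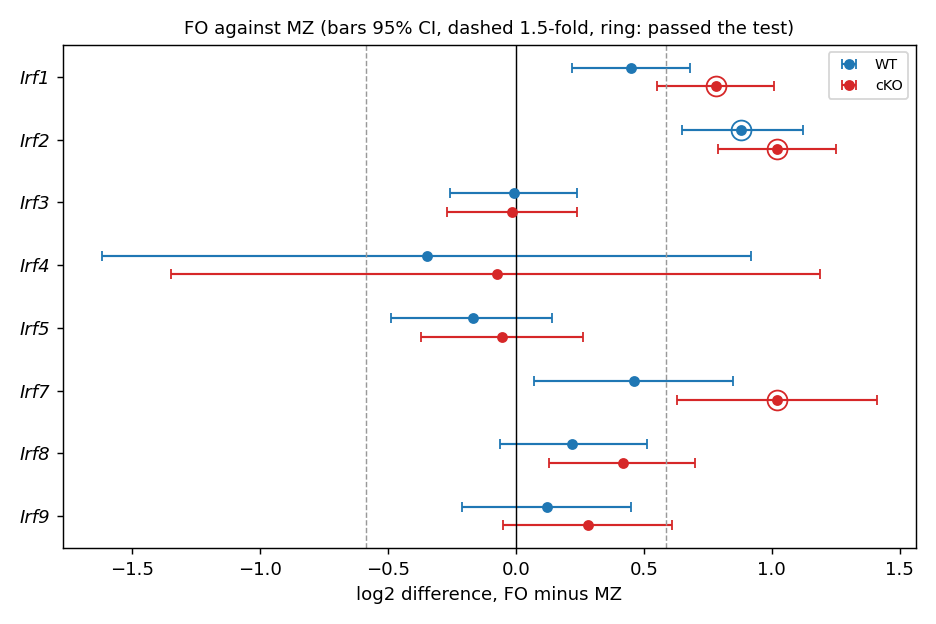
Log2 difference, FO minus MZ, of each IRF gene in WT (blue) and cKO (red), with bars for the 95% confidence interval, dashed lines at 1.5-fold and rings on genes that passed the test. Irf2 was ringed in both genotypes (0.88 and 1.02), Irf1 and Irf7 in cKO (0.78 and 1.02), and the interval of Irf4 in WT ran from -1.62 to 0.92.

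Irf4 (chr13:30749226-30766976) had no difference between groups that exceeded the spread between its replicates. It had 28655 and 10907 normalized counts in WT FO replicates 1 and 2 and 37342 and 13512 in WT MZ, so that replicate 1 exceeded replicate 2 by 2.63-fold and 2.76-fold. In cKO it had 27108 and 25256 in FO and 22260.4 and 34149 in MZ, a ratio of 1.07 and 1.53. The group means were 19781 ± 12549 (SD, n = 2) for WT FO, 25427 ± 16850.5 for WT MZ, 26182 ± 1309.9 for cKO FO and 28204 ± 8406 for cKO MZ. Every group thus overlapped every other group. The log2 difference, FO minus MZ, was -0.35 in WT (SE 0.547, CI -1.62 to 0.92, limma adjusted p = 0.728) and -0.075 in cKO (SE 0.547, CI -1.35 to 1.19, limma adjusted p = 0.94). The difference in WT was 0.35 without WT FO replicate 2 and 0.39 without WT MZ replicate 1.

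The pooled SD of Irf4 within groups was 0.749 on the log2 scale, the 836th largest of 14761 tested genes. Among the 4994 genes averaging 1000 or more normalized counts, for which counting error is small, it was the 37th largest, and the median of those genes was 0.105. The pooled SD of the other members ran from 0.0948 for Irf1 to 0.205 for Irf7. Of those 4994 genes, 46 (0.921%), Irf4 among them, were at least 2-fold lower in replicate 2 than in replicate 1 of both WT FO and WT MZ. The 5 genes whose values were closest to those of Irf4 over the 8 libraries, by the root mean square (RMS) difference of gene-centred log2 values, were Ciart, Gem, Siah2, Nr4a1 and Ddit3. Their RMS differences were 0.147 to 0.171, where the RMS of Irf4 around its own mean was 0.585. Nr4a1, an immediate early gene of antigen receptor signalling, had 16637 and 6551 normalized counts among WT and 19309.9 and 12101 among cKO libraries of FO cells, against 23203 and 8711 (WT) and 11641 and 21513 (cKO) for MZ cells. Ciart, a repressor of the circadian clock, had 1293 and 579 in WT FO and 1865 and 668 in WT MZ.

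Genes of B cell activation were set beside Irf4. Of 8 such genes, 5 (Cd69, Cd83, Cd86, Nr4a1 and Myc) differed between replicates 1 and 2 in the direction of Irf4 in all 4 groups, which 15.4% of all tested genes did. Among 12 genes of the IRF4 circuit, 4 did so (33.3%), Prdm1, Rel, Nfkb1 and Myc, as did 3 of 9 interferon receptors, kinases and STAT partners (33.3%) and 2 of 7 ETS and AP-1 partners (28.6%). The other lists lay nearer to the share of all genes or below it. They were 1 of 5 IRF binding proteins (20%), 3 of 21 sensors, adaptors and kinases (14.3%), 1 of 11 IRF1 targets (9.09%) and 1 of 15 ISGF3 targets (6.67%). Rel, which encodes the NF-kB subunit c-Rel and was singled out after its values were seen, had 32109 and 12761 among WT and 29447 and 18721 among cKO libraries of FO cells, against 29615 and 9964 (WT) and 13501 and 23094 (cKO) for MZ cells. Fos and Egr1, also singled out afterwards, went the other way in WT. Fos had 9813 and 18031 in FO and 11287 and 19332 in MZ, and Egr1 had 1303 and 1695 in FO and 1660.4 and 2938 in MZ. The summed level of the 8 activation genes was 69847 and 53365 among WT and 79313 and 66874 among cKO libraries of FO cells, against 95268 and 64107 (WT) and 69952 and 94844 (cKO) for MZ cells, and the part of activation in the spread of Irf4 was not tested. Plasma cell markers, which mark cells with abundant Irf4 (6 listed, 5 averaging 10 or more, none at 0 in every library), summed to 2940.1 to 6915 over the 8 libraries. In WT, Jchain of that list had 619 and 968 in FO and 305 and 3692 in MZ, while Prdm1 had 153 and 77.1 in FO and 594 and 279 in MZ, and their part in the spread of Irf4 was not tested.

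**Figure D4:**
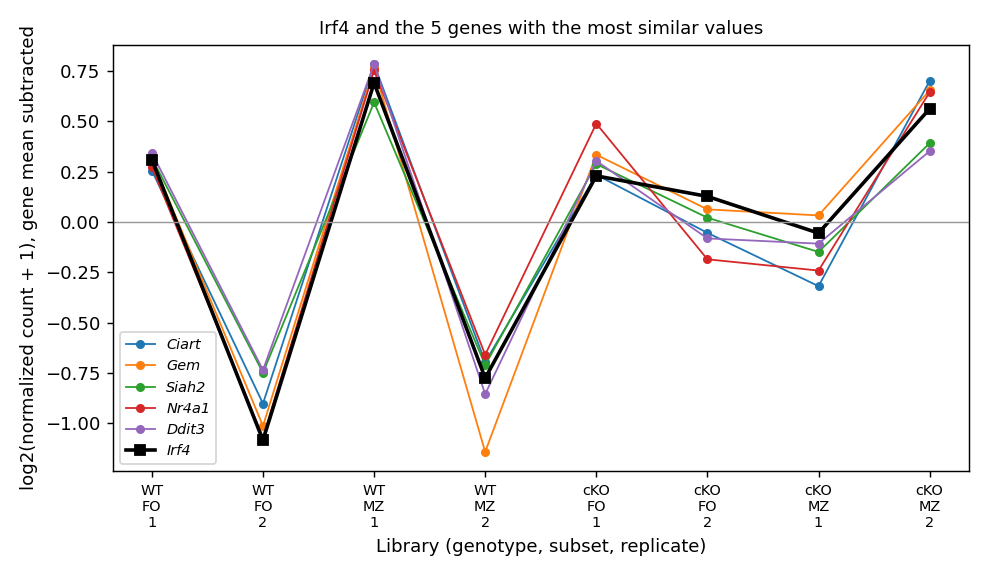
Log2 of the normalized count plus 1, with the mean of each gene subtracted, in the 8 libraries for Irf4 (black squares) and the 5 genes with the smallest RMS difference from it (coloured circles). All 6 genes were low in WT FO replicate 2 and WT MZ replicate 2, where Irf4 had 10907 and 13512 normalized counts, and high in WT MZ replicate 1, where it had 37342.

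Irf8 varied less around its own mean than Irf4, with an RMS of 0.193 against 0.585. The genes closest to Irf8 were Nfkb2, Mon1a, Natd1, Zfpl1 and Whamm, with RMS differences from it of 0.0487 to 0.0554. Nfkb2, which encodes the NF-kB subunit p100, had 9574 and 9480.4 normalized counts among WT and 9512 and 10142 among cKO libraries of FO cells, against 8815 and 7308 (WT) and 7679 and 7816 (cKO) for MZ cells.

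The next question was whether the family differed between cKO and WT. No member was called between cKO and WT by limma, in FO (where 0.0677% of all tested genes were called), in MZ (0.0339%) or across both subsets (0.108%), and none was called for the interaction of genotype and subset (0% of all genes). Without adjustment, p was under 0.05 for 1 member in FO (2.59% of all tested genes), 2 in MZ (4.04%), 2 across both subsets (6.63%) and 2 for the interaction (0.637%). In MZ, DESeq2 on the recovered reads called 1 member, Irf7, and 0.325% of all genes, and edgeR called no member and 0.0271% of all genes. The median absolute log2 difference of the members was 0.17 in FO and 0.194 in MZ, where it was 0.11 and 0.13 over all genes.

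Irf7 was the member with the largest difference in MZ. Both cKO MZ libraries (692 and 928) lay below both WT MZ libraries (1234 and 1606), and the log2 difference, cKO minus WT, was -0.81 (SE 0.167, CI -1.20 to -0.42), a fold of 0.57. The limma unadjusted p for Irf7 was 0.00143 and its adjusted p = 0.526. DESeq2 gave -0.80 with an adjusted p = 0.00869, edgeR gave -0.80 with an adjusted p = 0.644, and over all alternatives the adjusted p ran from 0.00869 to 1. Leaving out 1 library at a time moved the difference between -1.02 and -0.60. It was -0.60 without cKO MZ replicate 1, the library with granulocyte transcripts, and -0.62 without WT MZ replicate 2. In FO the cKO libraries were also below the WT libraries, with a log2 difference of -0.25 (SE 0.167, CI -0.64 to 0.13, limma adjusted p = 1). Across both subsets it was -0.53 (SE 0.118, CI -0.81 to -0.26, limma adjusted p = 0.352), and the genotypes overlapped there. For that comparison DESeq2 gave -0.53 with an adjusted p = 0.0121, short of 1.5-fold, and edgeR gave -0.52 with an adjusted p = 0.409.

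For Irf9 the log2 difference, cKO minus WT, was -0.37 in MZ (SE 0.142, CI -0.70 to -0.04, limma adjusted p = 0.998) and -0.21 in FO (SE 0.142, CI -0.54 to 0.12, limma adjusted p = 1). In FO it rested on WT FO replicate 2, since it was -0.0177 without that library. In MZ it ran from -0.50 to -0.24 when each library was left out in turn, and was smallest without WT MZ replicate 2. Irf1 in FO was 0.30 higher in cKO (SE 0.0985, CI 0.068 to 0.53), with an unadjusted p of 0.0175 and a limma adjusted p = 1, and in MZ its difference was -0.027 (CI -0.26 to 0.20). For Irf2, Irf3, Irf5 and Irf8 all intervals in FO and MZ lay within 1.5-fold on either side, the farthest bound being -0.55 for Irf5 in MZ. For Irf4 the difference was 0.57 in FO (CI -0.70 to 1.84), 0.30 in MZ (CI -0.97 to 1.57) and 0.43 across both subsets (SE 0.387, CI -0.47 to 1.33, limma adjusted p = 0.886). Its direction rested on single libraries, since the difference became -0.13 in FO without WT FO replicate 2 and -0.44 in MZ without WT MZ replicate 2. The cKO and WT libraries did not overlap for 2 of 8 members in FO (Irf1 and Irf7) and for 5 of 8 in MZ (Irf2, Irf3, Irf5, Irf7 and Irf9), and for 24% and 34.5% of all tested genes.

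**Figure D5:**
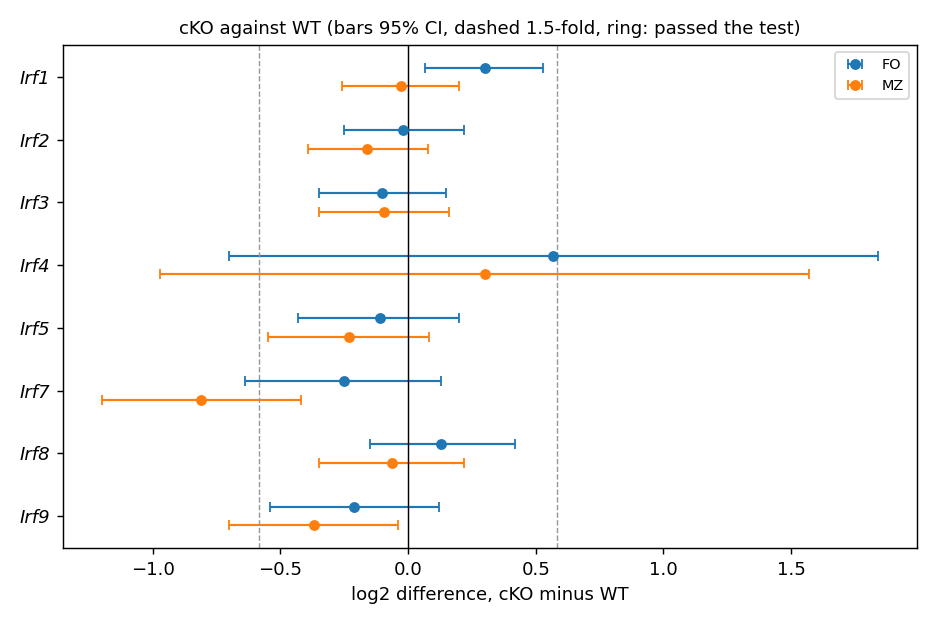
Log2 difference, cKO minus WT, of each IRF gene in FO (blue) and MZ (orange), with bars for the 95% confidence interval and dashed lines at 1.5-fold. No gene is ringed because none passed the test, and Irf7 in MZ lay at -0.81 with an interval of -1.20 to -0.42.

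Genes around the family in the same pathways were counted next. Of all tested genes, 7.41% were called lower and 4.62% higher in FO than in MZ in WT, and 8.18% and 5.54% in cKO. The ETS and AP-1 partners of IRF4 and IRF8 (7 tested) and 5 IRF binding proteins had no gene called between FO and MZ in either genotype. Of 21 sensors, adaptors and kinases upstream of IRF3, IRF5 and IRF7, 4 were lower in FO in WT and 3 in cKO, and 1 was higher in cKO. Those lower in both were Tlr3, Tlr7 and Ikbke. Tlr3, the receptor for double-stranded RNA, had 115 and 148 normalized counts among WT and 118 and 117 among cKO libraries of FO cells, against 1291 and 1298 (WT) and 1147 and 997 (cKO) for MZ cells, a log2 difference, FO minus MZ, of -3.30 in WT and -3.18 in cKO (limma adjusted p = 3.18e-05 and 3.86e-05). Tlr7, the receptor for single-stranded RNA, differed by -1.17 and -1.47, and Ikbke, a kinase that phosphorylates IRF3 and IRF7, by -1.59 and -1.49. Irf7, by contrast, was higher in FO than in MZ cells of cKO mice.

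Of 9 receptors, kinases and STAT partners of IRF9, 2 were higher in FO in WT, Ifnar1 and Jak1, and 3 in cKO. Ifnar1, a chain of the type I interferon receptor, had 4576 and 4882 among WT and 4363 and 4761 among cKO libraries of FO cells, against 2622 and 2913 (WT) and 2577 and 2581 (cKO) for MZ cells, with log2 differences of 0.77 and 0.82. Of 15 targets of ISGF3, none was higher in FO and 2 were lower in WT and 1 in cKO. Isg15, the one lower in both, had log2 differences of -1.84 (WT) and -1.78 (cKO), both past the test (limma adjusted p = 0.00218 and 0.00214). Of 11 targets of IRF1, 4 were lower in FO in WT and 2 in cKO, Gbp3 and Gbp5 in both. These guanylate binding proteins were lower in the subset in which Irf1 was higher, with log2 differences, FO minus MZ, of -0.70 and -0.72 for Gbp3 and -0.76 and -0.68 for Gbp5.

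In the IRF4 circuit, 2 of 12 genes were higher and 2 lower in FO in both genotypes. Bcl6, a repressor of plasma cell formation that opposes IRF4, had 3925 and 3182 among WT and 3741 and 3860.1 among cKO libraries of FO cells, against 884 and 967 (WT) and 688 and 887 (cKO) for MZ cells, a log2 difference of 1.93 and 2.28. Bach2 differed by 1.97 and 1.92. Prdm1, which encodes Blimp-1 and is a target of IRF4, was lower in FO by -1.90 and -1.68 on the log2 scale and Myc by -1.80 and -1.42. Irf4 had no difference that passed between the same libraries.

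No gene of these 7 lists was called between cKO and WT in FO, in MZ or across both subsets, or for the interaction. The ISGF3 targets had a median log2 difference, cKO minus WT, of -0.325 in FO, with 12 of 15 below zero, and of -0.426 in MZ, with 14 of 15 below zero, where 52.5% and 53.1% of all genes lay below zero. The shift in FO rested on WT FO replicate 2: without it the median was 0.0457 and 7 of 15 lay below zero. In MZ the median was -0.2 without WT MZ replicate 2 and -0.268 without cKO MZ replicate 1, with 13 of 15 below zero in each case. In both WT subsets, 13 of 15 targets were higher in replicate 2 than in replicate 1, as were 38.6% of all genes and Irf9. Markers of plasmacytoid dendritic cells, which hold much Irf7 (5 listed, 3 of them averaging 10 or more, none at 0 in every library), summed to 719 and 1124 among WT and 717 and 928 among cKO libraries of FO cells, against 855 and 1032 (WT) and 958 and 913 (cKO) for MZ cells, most of it Pacsin1. In MZ, Ccr9 of that list had 40.5 and 59.8 in WT and 22.9 and 26.8 in cKO. Siglech overlapped there, with 17.3 and 55.2 in WT and 35.9 and 14.4 in cKO. Pacsin1 had 794 and 913 in WT MZ and 899 and 871 in cKO MZ. Klk1 (1.93 and 1.81) and Cox6a2 (1.93 and 2.72) were near the floor in WT MZ and at 0 in both cKO MZ libraries. Macrophage and monocyte markers (7 listed, 6 averaging 10 or more) summed to 483 and 1116 among WT and 883 and 482 among cKO libraries of FO cells, against 357 and 1512 (WT) and 1508 and 793 (cKO) for MZ cells. In WT they were thus higher in replicate 2, as were Irf3, Irf5, Irf7, Irf9 and most ISGF3 targets, while Irf4 was lower. In cKO the macrophage and monocyte sums were lower in replicate 2 of both subsets, while Irf3, Irf5, Irf7 and Irf9 were higher. The part of either cell type in these values was not tested.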

How the data were processed

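RNA was extracted from sorted splenic B cells, ribosomal RNA was depleted and single-end reads were sequenced. The authors aligned reads to mm10 and counted them per gene, and the deposited values are counts divided by DESeq2 size factors, a signal with no length correction. The labels name HISAT2, featureCounts, HTSeq and DESeq2 without versions. Whole reads were recovered from the values of all 8 libraries (100.0% of values within 0.01 of a whole number) for the count tests. The 14761 of 27928 genes that averaged 10 or more normalized counts entered limma 3.58.1 in R 4.3.3, with log2(value + 1), a trended prior and 4 groups fitted together. A call required an adjusted p (Benjamini-Hochberg) no larger than 0.05 and a 1.5-fold difference. Fold changes are on the log2(value + 1) scale. The 8 members, the gene lists and the rule for named genes were chosen with earlier results of these data known. The rule named all members, list genes called between FO and MZ in both genotypes or in any other comparison, and the 5 genes most like Irf4 and Irf8. Gene positions and exon lengths came from GENCODE M21 (GRCm38), matched by gene ID for 27872 genes. The fits were tested on simulated data. Alternatives were a pseudocount of 0.5, no filter, quantile normalization, the 4 libraries compared alone, a replicate block, DESeq2 and edgeR 4.0.16 on recovered reads, no fold or a 2-fold cutoff, and each library left out. ATAC-seq samples were not analysed here.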

Additional observations from a re-analysis of the deposited data

How the results depend on the processing

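Each choice was changed alone. Of the counts of members called, 119 of 123 alternatives kept the count within 1.5 times. In WT, FO against MZ, 2 members (Irf1 and Irf2) passed with no fold cutoff and 0 at 2-fold, and across both genotypes 0 passed at 2-fold, which follows from the cutoffs. In cKO against WT in MZ, DESeq2 called 1 member, Irf7 (-0.80). Of 872 alternatives for log2 differences of members, 831 kept their direction and their side of the threshold, 38 reversed, 2 lost a call and 1 gained one. The 2 lost calls were Irf1 across both genotypes, at 0.49 under quantile normalization and 0.56 without WT MZ replicate 1, both below 1.5-fold. Quantile normalization also turned Irf1, cKO against WT in MZ, to 0.0424. The cause was not tested. All other reversals came from leaving out 1 library, among differences that did not pass the test.

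When each library was left out in turn, FO minus MZ in WT ran from -0.10 to 0.0823 for Irf3, from -1.08 to 0.39 for Irf4 and from -0.0745 to 0.31 for Irf9. In cKO it ran from -0.14 to 0.11 for Irf3, from -0.38 to 0.23 for Irf4 and from -0.17 to 0.0617 for Irf5, and across both genotypes from -0.0754 to 0.0521 for Irf3 and from -0.58 to 0.16 for Irf4. The difference cKO minus WT in FO ran from -0.14 to 0.10 for Irf2, from -0.23 to 0.028 for Irf3, from -0.13 to 1.26 for Irf4 and from -0.29 to 0.0581 for Irf5. In MZ it ran from -0.14 to 0.0869 for Irf1, from -0.44 to 1.03 for Irf4 and from -0.21 to 0.0885 for Irf8, and across both subsets from -0.0412 to 0.11 for Irf8. The interaction ran from -0.13 to 0.12 for Irf3, from -0.46 to 1.00 for Irf4, from -0.0541 to 0.29 for Irf5 and from -0.0326 to 0.35 for Irf9.

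The replicate numbers were not shown to pair the libraries. In cKO, the libraries numbered 1 differed in Xist, at 14748 in FO and 89.7 in MZ. Deviations from the group means correlated at 0.59 between WT FO and WT MZ, 0.29 between WT FO and cKO FO, 0.16 between WT MZ and cKO FO, 0 between cKO FO and cKO MZ, -0.17 between WT FO and cKO MZ and -0.3 between WT MZ and cKO MZ. With the replicate block, 1 member was called in WT, 3 in cKO and 3 across both genotypes between FO and MZ, and 0 between genotypes. With the numbers of cKO MZ exchanged, a block chosen after seeing the data, 1, 3, 3 and 0 members were called in the same comparisons.

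Over all genes, 1776 were called between FO and MZ in WT, 2026 in cKO and 2711 across both genotypes, and 10, 5 and 16 between cKO and WT in FO, in MZ and across both subsets. DESeq2 called 25, 48 and 69 between genotypes, and the exchanged block 16, 12 and 37. With the 4 libraries alone, 1014 were called between FO and MZ in WT and 4 between genotypes in FO. Leaving out any cKO library other than cKO FO replicate 2 gave 1073 to 1348 calls between FO and MZ in cKO, the fewest without cKO MZ replicate 1. Without that library 8 genes were called across both subsets. Leaving out any FO or cKO MZ library gave 4 to 6 calls between genotypes in FO. With 2 libraries a group, the interval of Irf4 between FO and MZ in cKO took in differences of over 2-fold in either direction.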
